A study of Mus musculus with 20 samples.

Results

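Protamines and transition proteins are small basic proteins of the sperm nucleus, and the array carries 7 probe sets for the 4 mouse genes Prm1, Prm2, Tnp1 and Tnp2. A probe set is a group of short probes that together give 1 signal. The 7 were taken by gene symbol from 45037 probe sets tested, which stand for 18194 genes. Prm1 has 3 probe sets, Tnp1 has 2, and Prm2 and Tnp2 have 1 each. The genes were chosen by a measured Prm1 difference between the genotypes, so the differences between Hdac4KO and WT at all 7 probe sets are given as a description, with no test.

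The arrays measured RNA of whole brain from pups at postnatal day 3, on the B6CBAF1/OlaHsd background. There were 10 arrays from wild-type pups (WT) and 10 from pups homozygous for an Hdac4 knock-out allele (Hdac4KO), with 5 males and 5 females per genotype by the labels. The homozygotes came from crosses between carriers of a single knock-out colony, so Hdac4KO stands for 1 allele. The sources used here do not give which part of Hdac4 the allele lacks. Each array was counted as 1 brain, and the tests measure the spread between these arrays.

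In elongating spermatids most histones are taken off the DNA. Transition proteins 1 and 2 take their place for a time, and the protamines then replace the transition proteins and pack the sperm genome tightly. Prm1 and Prm2 encode the protamines, Tnp1 and Tnp2 the transition proteins. The genes are transcribed in round spermatids under the activator CREM, and their mRNAs are stored before translation. Postnatal day 3 precedes the first spermatids, and brain makes none. HDAC4, the product of the knocked-out gene, is a class IIa histone deacetylase known for binding MEF2 transcription factors and holding their targets down, and it is abundant in neurons.

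Prm1, Prm2 and Tnp2 lie close together on chromosome 16, and Tnp1 lies on chromosome 1, which also carries Hdac4. The 250 bases before each start are shown because the members share a spermatid pattern of expression while their signals differed in size here. They come from the RefSeq annotation of GRCm38.p6, read 5′ to 3′ on the gene's own strand, which is the minus strand in all 4 cases. The intervals are chr16:10796824-10797073 for Prm1, chr16:10792106-10792355 for Prm2, chr16:10788656-10788905 for Tnp2 and chr1:73015900-73016149 for Tnp1. Capitals mark matches to 3 motifs. These were a site like the cyclic AMP response element that CREM binds (TGACNTCA, both strands), a TATA core (TATAA, gene strand) and a loose pattern like the MEF2 site. The last, CTANNNNTAG, allows any base at N and reads the same on both strands.
Prm1: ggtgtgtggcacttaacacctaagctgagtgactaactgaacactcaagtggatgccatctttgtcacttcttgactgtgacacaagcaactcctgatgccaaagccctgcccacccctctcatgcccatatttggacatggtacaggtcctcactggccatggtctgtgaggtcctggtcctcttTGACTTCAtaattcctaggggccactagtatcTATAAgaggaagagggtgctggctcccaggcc
Prm2: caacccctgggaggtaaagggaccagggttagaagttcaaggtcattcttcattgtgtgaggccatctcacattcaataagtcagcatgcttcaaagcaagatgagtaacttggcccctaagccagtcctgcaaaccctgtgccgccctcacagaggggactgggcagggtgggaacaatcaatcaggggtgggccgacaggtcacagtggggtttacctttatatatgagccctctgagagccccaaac
Tnp2: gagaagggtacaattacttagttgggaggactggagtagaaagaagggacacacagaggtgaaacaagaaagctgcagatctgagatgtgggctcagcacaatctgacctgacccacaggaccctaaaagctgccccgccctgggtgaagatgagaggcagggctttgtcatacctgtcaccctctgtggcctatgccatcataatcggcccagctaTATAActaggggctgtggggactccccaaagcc
Tnp1: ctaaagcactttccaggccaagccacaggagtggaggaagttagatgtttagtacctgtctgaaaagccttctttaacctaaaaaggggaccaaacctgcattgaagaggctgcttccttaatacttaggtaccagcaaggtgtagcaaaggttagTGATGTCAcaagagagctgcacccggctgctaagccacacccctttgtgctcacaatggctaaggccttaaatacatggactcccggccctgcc

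The Prm1 window holds TGACTTCA from 64 bases before the start and TATAA from 32 bases before it. The Tnp1 window holds the first motif on its other strand, as TGATGTCA from 94 bases before the start, and the Tnp2 window holds TATAA from 33 bases before it. No match to these letters was found in the Prm2 window, and the MEF2 letters were found in none of the 4. Among 32851 RefSeq promoter windows of the same 250 bases, 7.49% hold TGACNTCA, 16.0% hold TATAA and 3.2% hold CTANNNNTAG. The matches are descriptions of sequence and not sites of binding.

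The arrays had been normalized alike, with medians between 6.26 and 6.32 on the log2 scale. At the probe set 1454693_at, Hdac4 was lower in Hdac4KO by −1.39 (SE 0.12, adjusted p = 6.28e-07 in limma with Benjamini-Hochberg adjustment over all probe sets, of which 2.06% were called, 1.05% as higher and 1.01% as lower), and at 1436758_at by −1.19 (adjusted p = 9.48e-07). The third Hdac4 probe set, 1447566_at, differed by −0.46 (adjusted p = 0.0198) and its genotypes overlapped. On 2 arrays the Hdac4 signal lay between the genotypes. WT replicate 8 had 7.36 at 1436758_at, the lowest of the WT arrays, and Hdac4KO replicate 10 had 7.35, the highest of the knock-outs. Sex-linked genes went against the label on 3 arrays, WT replicates 5 and 9 and Hdac4KO replicate 10. On the last of these, labelled male, Xist, an RNA of the inactive X chromosome, stood at 12.27 together with the Y-linked Kdm5d at 6.88. Results that rest on these arrays are given with and without them.

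Prm1 was higher in every Hdac4KO brain than in every WT brain at 2 of its 3 probe sets, with ratios of array signal of 3.90 and 3.24. Because the WT signal of both stood near the bottom of the array's range, these are ratios of signal and not of transcript level. They were the 2 largest increases among all 45037 probe sets. The third Prm1 probe set and the probe sets of Prm2, Tnp1 and Tnp2 differed by 0.09 or less on the log2 scale, and their genotypes overlapped. Of the 7 probe sets, 2 had every Hdac4KO array above every WT array, against 0.0444% of all probe sets (20 of 45037). Since that contrast chose the members, nothing is read from the comparison.

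**Figure D1:**
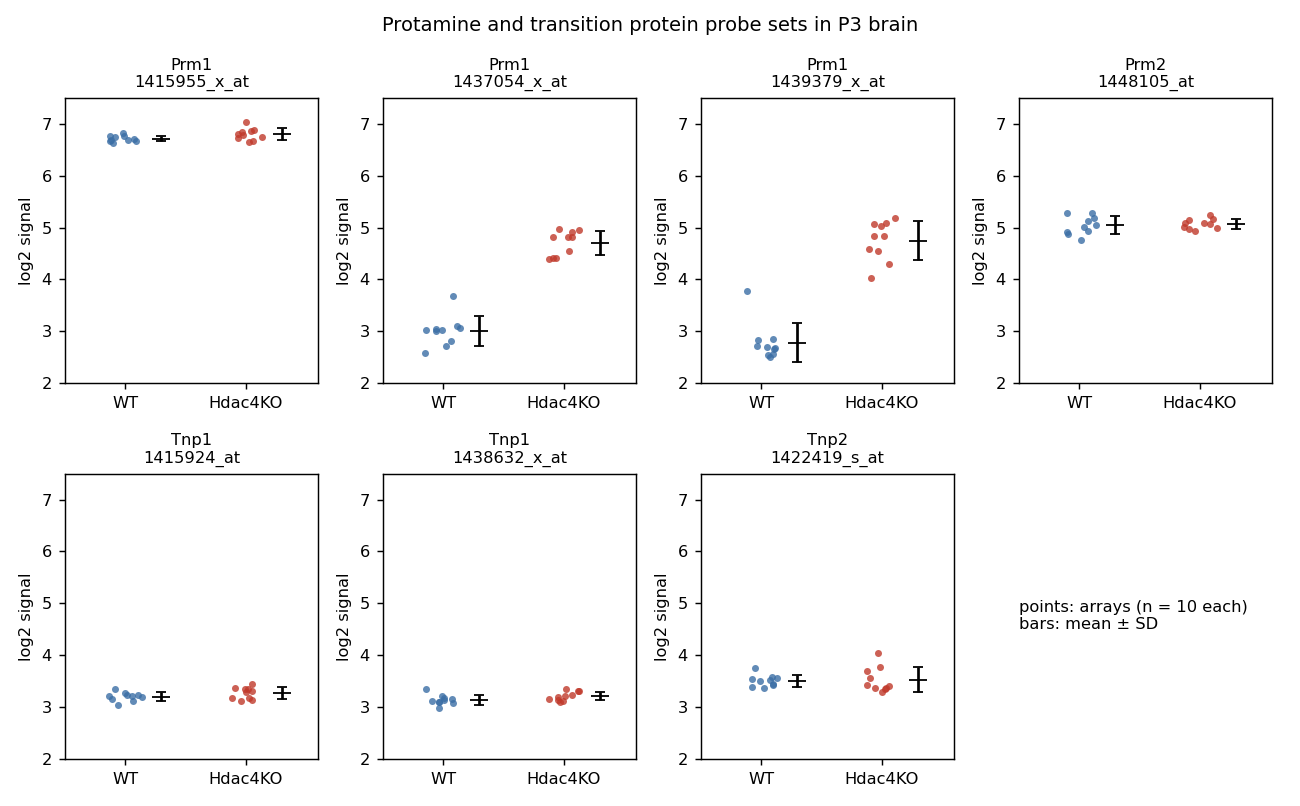
Log2 signal of the 7 member probe sets on each of 20 arrays, with WT and Hdac4KO side by side (points are arrays, bars are group means ± SD, n = 10 each). At the Prm1 probe sets 1439379_x_at and 1437054_x_at all Hdac4KO points lie above all WT points, and WT replicate 8 is the highest WT point in both. The other 5 probe sets overlap. Signals of different probe sets share no scale.

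At 1439379_x_at the WT signal ran from 2.50 over a median of 2.68 to 3.78, and the Hdac4KO signal from 4.02 over 4.83 to 5.19. The mean was 2.78 ± 0.37 in the WT and 4.75 ± 0.38 in the Hdac4KO arrays (SD, n = 10 each), a log2 difference of 1.96 (SE 0.15, 95% interval 1.64 to 2.29). The groups did not overlap, and their nearest arrays were WT replicate 8 at 3.78 and Hdac4KO replicate 10 at 4.02, the same pair that stood between the genotypes in Hdac4. The other 9 WT arrays lay between 2.50 and 2.86. Without WT replicate 8 and Hdac4KO replicate 10 the log2 difference was 2.16 (SE 0.10).

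At 1437054_x_at the WT signal ran from 2.58 over a median of 3.03 to 3.68, and the Hdac4KO signal from 4.40 over 4.81 to 4.97. The means were 3.01 ± 0.29 (SD, n = 10) and 4.70 ± 0.23 (SD, n = 10), a log2 difference of 1.70 (SE 0.11, 95% interval 1.47 to 1.93). WT replicate 8 was again the highest WT array, while Hdac4KO replicate 10, at 4.42, had 2 arrays at or just below it (replicate 2 at 4.40 and replicate 7 at 4.42). Without both intermediate arrays the log2 difference was 1.80 (SE 0.09).

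Both probe sets started from the bottom of the signal range. The median percentile of 1439379_x_at among all probe sets of an array was 0.226 in WT and 30.1 in Hdac4KO, and that of 1437054_x_at was 2.74 and 29.6. The signals stood near the floor in WT and below the array median in the knock-outs. In bulk tissue, a change in few cells and a small change in many cannot be told apart, and neither can fewer cells of a type and less RNA per cell.

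The third Prm1 probe set, 1415955_x_at, stood higher in its arrays' range, at the 55.1 percentile in WT and 56.2 in Hdac4KO. Its WT signal ran from 6.64 over 6.70 to 6.82 and its Hdac4KO signal from 6.66 over 6.80 to 7.03. The log2 difference was 0.09 (SE 0.04, 95% interval 0.00 to 0.17). Here 4 Hdac4KO arrays lay above the highest WT array and 8 above the WT mean, so the groups overlapped. The other Prm1 probe sets differed by 1.96 and 1.70, which is set beside this value as a description only. The sources used here do not give which stretch of the Prm1 transcript each probe set reads. By the platform's suffix, all 3 Prm1 probe sets (_x_at) hold probes that also match other sequences.

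Prm2, which encodes the second protamine, had a WT signal from 4.77 over 5.03 to 5.29 and a Hdac4KO signal from 4.93 over 5.08 to 5.24. Its log2 difference was 0.02 (SE 0.06, 95% interval −0.10 to 0.15), within the spread of either group. Tnp1 gave 3.20 ± 0.09 in WT and 3.27 ± 0.11 in Hdac4KO at 1415924_at (SD, n = 10 each), a log2 difference of 0.06 (95% interval −0.03 to 0.16). Its other probe set, 1438632_x_at, gave 3.14 ± 0.10 and 3.21 ± 0.09, a log2 difference of 0.07 (95% interval −0.01 to 0.16). At both Tnp1 probe sets the genotypes overlapped. Tnp2, at 1422419_s_at, had a WT signal from 3.36 over 3.52 to 3.76 and a Hdac4KO signal from 3.29 over 3.42 to 4.05. Its log2 difference was 0.02 (SE 0.08, 95% interval −0.15 to 0.18), and the Hdac4KO arrays were the more spread. The log2 differences of these 4 probe sets ran from 0.02 to 0.07, and those of the raised Prm1 probe sets were 1.70 and 1.96. Since the Prm1 difference chose the members, these values are a description only. The suffix _s_at of the Tnp2 probe set marks probes shared by several transcripts.

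Of the 18194 genes with 1 symbol per probe set, 9009 had more than 1 probe set. Among these, Prm1 was the single gene with 2 or more probe sets whose Hdac4KO arrays all lay above the WT arrays. The single gene with 2 or more probe sets whose Hdac4KO arrays all lay below was Hdac4, and such probe sets made up 0.0333% of all. This is a description of the same contrast that chose Prm1.

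The sexes were compared because the rule used neither sex nor the interaction. At none of the 7 probe sets was a difference between females and males called in limma, with a smallest adjusted p of 0.9998 (smallest unadjusted p = 0.207, at Tnp1 1415924_at). Over all 45037 probe sets 0 were called for sex (0.0%), 1518 had an unadjusted p under 0.05, and the methods' t-test also called 0 with 1594. With these labels Xist and the Y-linked genes were thus not called either, so no absence of a sex difference is read from this test. Without the 3 arrays whose sex-linked genes went wholly or in part against the label, 29 probe sets were called for sex. None of them was a member, and the members' smallest adjusted p was 0.983. Female minus male was 0.12 (95% interval −0.21 to 0.44) at Prm1 1439379_x_at and 0.07 (95% interval −0.16 to 0.30) at 1437054_x_at.

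The genotype difference at Prm1 1439379_x_at was 1.59 in males and 2.33 in females, while at 1437054_x_at it was 1.61 and 1.79. The interaction of genotype and sex was 0.74 (SE 0.27, unadjusted p = 0.0136) at 1439379_x_at, and its adjusted p over all probe sets was 0.917, so it did not pass. At the same probe set it was 0.64 (SE 0.30, unadjusted p = 0.0450) without the 3 arrays. At 1437054_x_at the interaction was 0.18 (SE 0.23). Both arrays with intermediate Hdac4 carry the label male, and the male groups were the more spread at 1439379_x_at, with SDs of 0.51 in WT and 0.39 in Hdac4KO against 0.07 and 0.16 in females. No probe set on the array was called for the interaction (0.0%), 2409 had an unadjusted p under 0.05, and the t-test called 0 with 2383.

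Prm1 was set against Hdac4 array by array within each genotype, since over both genotypes the arrays form separate clusters. Among WT arrays, Prm1 1439379_x_at and Hdac4 1436758_at gave r = −0.92 (permutation p = 0.00332, two-sided, n = 10) and rho = −0.71 (permutation p = 0.0268). The adjusted p over the 42 relations computed between members and Hdac4 was 0.139 for r and 0.225 for rho, so the relation did not pass. Without the 2 arrays farthest from the median Hdac4 signal, WT replicates 1 and 8, r was −0.41 (exact permutation p = 0.305, over 8 arrays). The size of the relation rests on those arrays.

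At the brighter Hdac4 probe set, 1454693_at, the WT relation with Prm1 1439379_x_at was r = −0.70 (permutation p = 0.0856, n = 10), with rho = 0.04 (permutation p = 0.920). Its sign turned to r = 0.58 (exact permutation p = 0.143) without WT replicates 7 and 8. Prm1 1437054_x_at gave r = −0.75 (permutation p = 0.0257, adjusted p = 0.389) and rho = −0.49 (permutation p = 0.156) in WT, and r = −0.18 (exact permutation p = 0.653) without the same pair. WT replicate 8 was the array with both a low Hdac4 and a high Prm1 signal. Without it alone, r with 1454693_at was 0.40 for 1439379_x_at and −0.26 for 1437054_x_at. With Hdac4 1436758_at, Prm1 1437054_x_at gave r = −0.62 (permutation p = 0.0917) and rho = −0.42 (permutation p = 0.23) in WT. Without WT replicates 1 and 8 these were −0.47 (exact permutation p = 0.245) and −0.71 (exact permutation p = 0.0576).

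Among Hdac4KO arrays, Prm1 1439379_x_at gave r = −0.60 (permutation p = 0.0657, adjusted p = 0.399) and rho = −0.22 (permutation p = 0.536) with Hdac4 1454693_at, and r = 0.40 (exact permutation p = 0.347) without Hdac4KO replicates 4 and 10. Prm1 1437054_x_at gave r = −0.35 (permutation p = 0.363) and rho = 0.04 (permutation p = 0.918) there, and r = 0.66 (exact permutation p = 0.0439) without the same pair. With the dimmest Hdac4 probe set, 1447566_at, both raised Prm1 probe sets had negative values in Hdac4KO, r = −0.60 for 1437054_x_at (permutation p = 0.0683, rho = −0.76, permutation p = 0.0154) and r = −0.47 for 1439379_x_at (permutation p = 0.176, rho = −0.37, permutation p = 0.297). Without Hdac4KO replicates 5 and 9 these were −0.78 (exact permutation p = 0.0292) and −0.81 (exact permutation p = 0.0155). None of the 42 relations had an adjusted p under 0.05. Without the intermediate arrays, no relation of Prm1 with Hdac4 1454693_at passed it either.

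**Figure D2:**
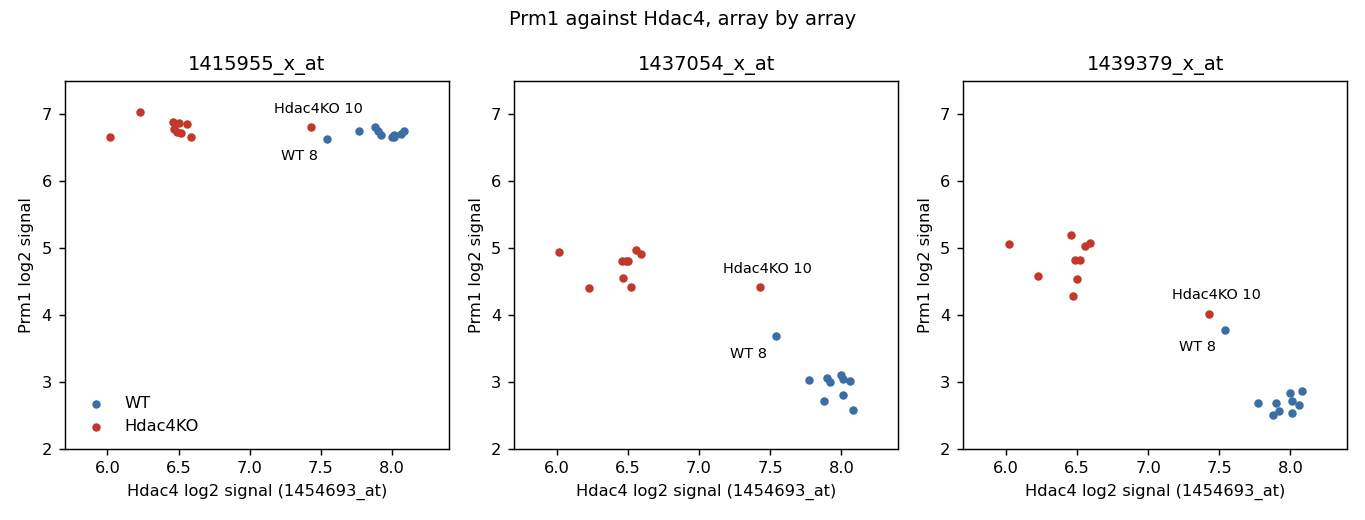
Log2 signal of the 3 Prm1 probe sets (vertical axes) against that of Hdac4 1454693_at (horizontal axes), 1 point per array, blue for WT and red for Hdac4KO. The genotypes form separate clusters along Hdac4, and WT replicate 8 (7.54) and Hdac4KO replicate 10 (7.43) lie between them, while Prm1 separates the genotypes at 1437054_x_at and 1439379_x_at and not at 1415955_x_at.

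The intermediate arrays were placed on a scale where the mean of the other WT arrays is 0 and that of the other Hdac4KO arrays is 1. WT replicate 8 stood at 0.423 (1437054_x_at) and 0.535 (1439379_x_at) for Prm1, above all other WT arrays, which ranged from −0.289 to 0.0672. Its Hdac4 stood at 0.367 (1436758_at), 0.293 (1454693_at) and 1.09 (1447566_at, whose genotypes overlap). The 11 other probe sets with separated genotypes and a change above 1.2-fold belong to Stk25, Bok, Yes1, Pam, Pa2g4, Fgd4, Rev3l, Asb1, Dpysl3, Kif1a and Col19a1. They had a median of 0.342 on that array. The 11 were kept only where every array separated by genotype, both intermediate arrays included. By that choice no array could stand among those of the other genotype, so their medians are a description. The next highest WT median at the 11 was 0.206, on WT replicate 9. WT replicate 8 was shifted toward the knock-outs in Prm1, in Hdac4 and, less set apart from the other WT arrays than in Prm1, in the other separated probe sets.

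On Hdac4KO replicate 10, Hdac4 stood at 0.322 and 0.328, nearer to WT, and Prm1 at 0.817 (1437054_x_at) and 0.607 (1439379_x_at). Positions were taken on log2 values. The same share of the way between genotypes in raw signal gives unequal log2 positions for a lowered and a raised gene. Positions of Hdac4 and Prm1 are therefore not compared in size. The 11 other probe sets had a median of 0.891. They were chosen to separate this array from all WT arrays, so nothing is read from that median. The remaining Hdac4KO arrays ranged from 0.749 to 1.26 for Prm1. The contrast between 3′ and 5′ control probe sets, a sign of RNA integrity, was 0.262 on Hdac4KO replicate 10, the largest of the 20 arrays, and 0.172 on WT replicate 8. It averaged 0.191 ± 0.031 in WT and 0.216 ± 0.030 in Hdac4KO (SD, n = 10 each, permutation p = 0.0836). With it as a covariate the Prm1 differences were 1.75 and 2.12. Its part in the intermediate signals was not tested.

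**Figure D3:**
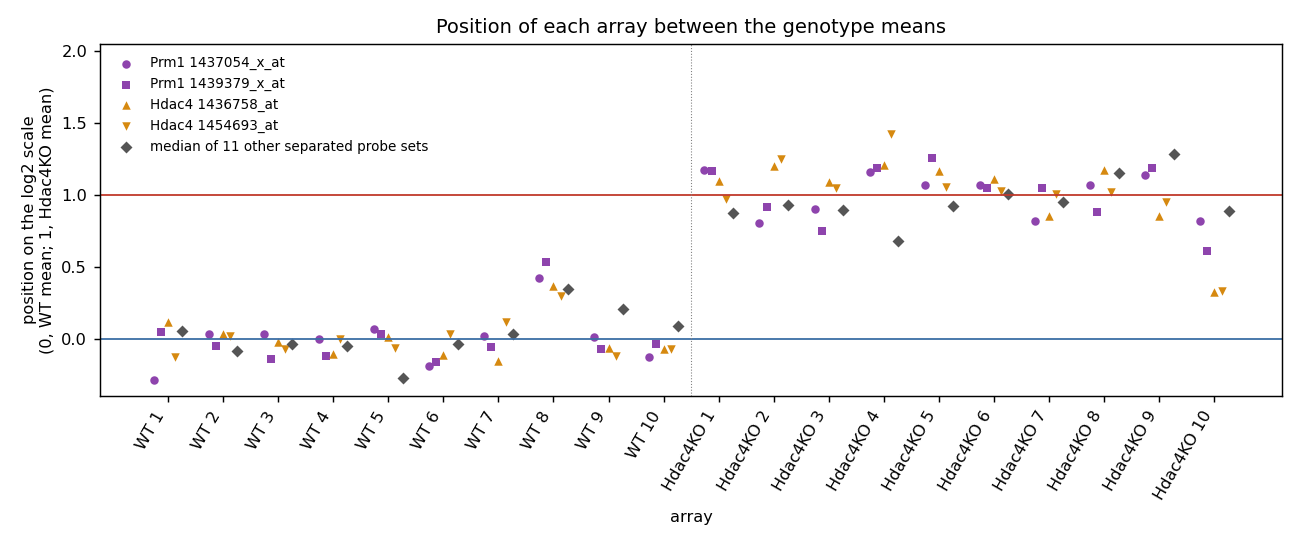
Position of each array between the genotype means (0, mean of the other WT arrays; 1, mean of the other Hdac4KO arrays) for Prm1, Hdac4 and the median of 11 other separated probe sets. WT replicate 8 lies between 0.293 and 0.535 in all 5 measures. Hdac4KO replicate 10 is near 0.33 for Hdac4 and at 0.607 or above for the rest. Positions are on log2 values, so those of Hdac4, which falls, and Prm1, which rises, do not compare in size. The 11 were chosen to separate the genotypes on every array, which limits where an array can lie.

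The members were also set against each other within each genotype. The raised Prm1 probe sets gave r = 0.70 with each other among Hdac4KO arrays (permutation p = 0.0248, n = 10). Among WT arrays r was 0.74, and −0.49 without WT replicates 6 and 8. None of the 42 relations among members had an adjusted p under 0.05, the smallest being 0.382.

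Over all 20 arrays the probe sets whose signals were most like Prm1 1439379_x_at were Prm1 1437054_x_at (r = 0.97) and then Pam (r = 0.95), which encodes an enzyme of peptide amidation. Armc9, a ciliary protein gene, Bok, a member of the BCL2 family, Mapkbp1, and Gin1 followed with r from 0.87 to 0.91. The most opposite signals were those of Hdac4 (r = −0.96 and −0.95), the kinase gene Stk25 (r = −0.95), Gin1 at another probe set (r = −0.93), the kinesin gene Kif1a (r = −0.93) and Asb1 (r = −0.91). Of these genes all but Mapkbp1 lie on chromosome 1, whereas Prm1 lies on chromosome 16. The values describe likeness over 20 arrays that share the genotype contrast, and carry no test. Prm2 (r = 0.15), Tnp1 (r = 0.41 and 0.43), Tnp2 (r = 0.24) and the third Prm1 probe set (r = 0.33) were less like it.

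When each array's deviation from its genotype mean was taken instead, the probe sets most like Prm1 1439379_x_at were other ones. Mybph, a myosin binding protein gene, and Rap2a, a small GTPase gene, gave r = 0.81 and 0.77, and Cilp2, Tcf19 and the adenylate kinase gene Ak7 gave −0.81, −0.78 and −0.77. Mybph, Rap2a, Cilp2, Tcf19 and Ak7 were not called between genotypes in limma, with adjusted p from 0.420 to 0.953. Prm1 1437054_x_at gave 0.71 and Tnp2 0.57 on these deviations. Hdac4 gave −0.65 (1436758_at), −0.59 (1454693_at) and −0.59 (1447566_at), Stk25 −0.59, Armc9 0.59 and Pam 0.58. Bok, Mapkbp1 and Asb1 gave 0.10, 0.31 and −0.36. These values include WT replicate 8 and Hdac4KO replicate 10, and carry no test.

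Other genes of sperm chromatin were counted with the fit over all probe sets. Of 14 genes that load, modify or replace histones in spermatids, 11 had a probe set of their own, and at each gene's brightest probe set 0 were called higher and 0 lower in limma. An unadjusted p under 0.05 was reached by 2, with no such count taken over all genes, so nothing is read from it. The methods' t-test called 0. Chd5 was called higher (adjusted p = 0.0461) where dim probe sets were left out. Over all genes 1.45% were called higher and 0.517% lower. Prm3, a protamine-like gene of the same cluster as Prm1, differed by 0.01 (SE 0.06, adjusted p = 0.975). The linker histone genes H1f6 and H1f7 of the testis differed by −0.06 (adjusted p = 0.657) and −0.03 (adjusted p = 0.819). Chd5, a chromatin remodeller of spermatids and neurons, differed by 0.09 (adjusted p = 0.105), and Psme4, the proteasome activator that removes acetylated histones, by 0.09 (adjusted p = 0.226). The median log2 difference of the 11 was 0.01, as over all genes, and their range was −0.09 to 0.09.

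Among 17 genes that regulate protamine genes or their mRNAs, 0 were called higher and 1 lower. This was Ybx3, a Y-box protein that binds stored mRNA, at −0.14 (SE 0.04, adjusted p = 0.0441) and at −0.21 (adjusted p = 0.00398) in its other probe set. Crem, the main activator of protamine transcription, differed by 0.05 (adjusted p = 0.655), and Ybx2, which stores protamine mRNA in spermatids, by 0.02 (adjusted p = 0.877). Camk4, a kinase of neurons and spermatids known to phosphorylate protamine 2, had 0.49 (SE 0.14, adjusted p = 0.0621), the largest value of the list, and did not pass in the fit over all 20 arrays. Sox5 and Tarbp2 each differed by 0.07 (adjusted p = 0.271 and 0.295). Ybx3 was no longer called at its brightest probe set without any 1 of WT replicates 1 to 8 or of Hdac4KO replicates 1 and 4 to 8, nor without both intermediate arrays, nor with the replicate number as a block. At its brightest probe set Camk4 was called higher with that block (adjusted p = 0.0414) and without Hdac4KO replicate 4 (adjusted p = 0.0381) or 9 (adjusted p = 0.0485). Without replicate 9 Ybx3 was called as well. The list's median was 0.03.

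Of 24 genes of the sperm tail, the acrosome and sperm energy supply, 1 was called higher and 0 lower. Odf2, a protein of the sperm outer dense fibres that is also found at centrosomes of other cells, was called at its brightest probe set, with a rise of 0.15 (SE 0.03, adjusted p = 0.0288). At its 4 other probe sets it was not called, with differences from −0.24 to 0.12. Acr, the acrosomal protease, had 0.17 (adjusted p = 0.148), and Ldhc and Oaz3 had −0.08 and −0.09 (adjusted p = 0.430 and 0.478). Akap4, Smcp, Odf1 and Pgk2, which build or fuel the sperm tail, lay between −0.06 and 0.05. Odf2 was no longer called without any 1 of WT replicates 4 and 7 and Hdac4KO replicates 5, 8 and 9, nor without both intermediate arrays. The list's median was 0.00.

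Germ cell markers were counted to see whether germ cells were measured along with brain. Of 12 genes, Ddx4, Dazl, Sycp3 and Stra8 among them, 0 were called either way in limma, 1 had an unadjusted p under 0.05 (Sohlh1, −0.12, adjusted p = 0.128), and the t-test called 0. The mean log2 signal of the 12 ran from 4.26 to 4.39 in WT and from 4.22 to 4.39 in Hdac4KO, and on this array a low signal cannot be told from none. Of 9 brain markers 0 were called, with 1 at an unadjusted p under 0.05. For neither list was the unadjusted count set beside one over all genes, so nothing is read from it. Their mean ran from 12.60 to 12.66 in WT and from 12.56 to 12.66 in Hdac4KO, so brain markers were high on every array.

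**Figure D4:**
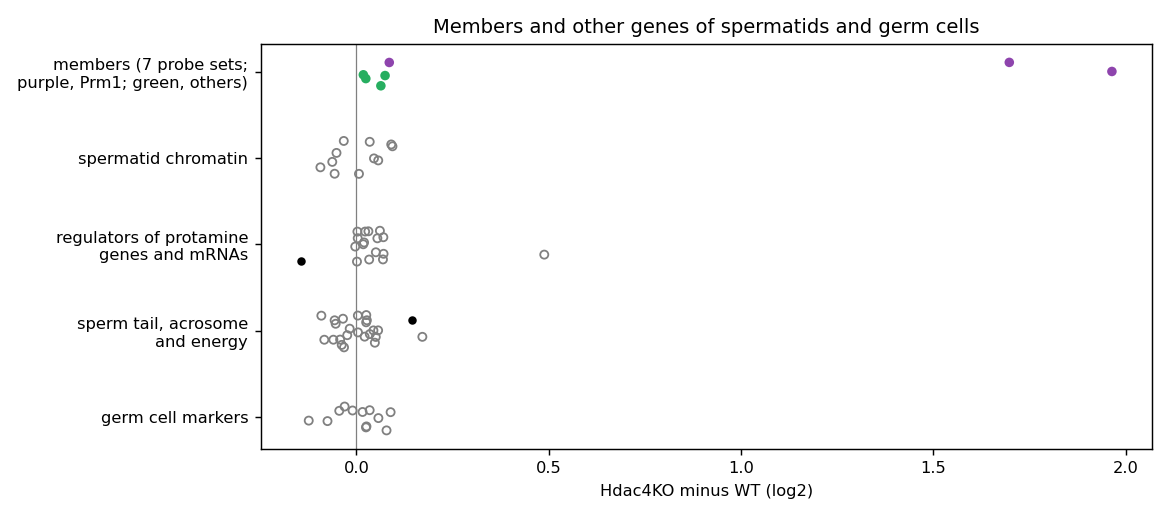
Log2 difference, Hdac4KO minus WT (horizontal axis), for the 7 member probe sets (top row) and for each gene of 4 lists at its brightest probe set (rows below; black where called at an adjusted p under 0.05 in limma, open where not). The raised Prm1 probe sets stand at 1.70 and 1.96, the 2 black points are Ybx3 (−0.14) and Odf2 (0.15), and the open point at 0.49 is Camk4.

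Genes beside Prm1 were counted next. The 20 measured genes nearest to Prm1 on chromosome 16 were taken, 10 on each side, leaving out Prm2 and Tnp2. At their brightest probe sets 0 were called, against 1.45% higher and 0.517% lower over all genes, and the t-test called 0. An unadjusted p under 0.05 in limma was reached by 3 in the higher and 2 in the lower direction. Unadjusted counts over all genes were not taken, so nothing is read from these. The nearest were Prm3, Socs1, an inhibitor of cytokine signalling, at −0.12, Rmi2, a partner of the BLM helicase, at −0.10, and Litaf. Snn had 0.12 (adjusted p = 0.0698), and the translation termination factor gene Gspt1 was called at a dimmer probe set, at 0.14 (adjusted p = 0.0304). The median of the 20 was −0.02. At their brightest probe sets the 20 ranged from −0.12 to 0.17, against 1.70 and 1.96 at the raised Prm1 probe sets.

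Tnp1 lies on the chromosome of Hdac4, with 156 measured genes between them. Of its 20 neighbours, 0 were called higher and 1 lower, against 1.45% and 0.517% over all genes. The 1 was Igfbp2, which encodes a binding protein for insulin-like growth factors, at −0.20 (SE 0.04, adjusted p = 0.0221). At an unadjusted p under 0.05 in limma there were 4 higher and 1 lower, again with no such count over all genes. Igfbp5, next to Tnp1, had −0.05. With the contrast of 3′ and 5′ control probe sets as a covariate Igfbp2 was not called, nor were Ybx3 and Odf2 at their brightest probe sets, and Odf2 was not called with the replicate number as a block. The median of the 20 was 0.00.

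**Figure D5:**
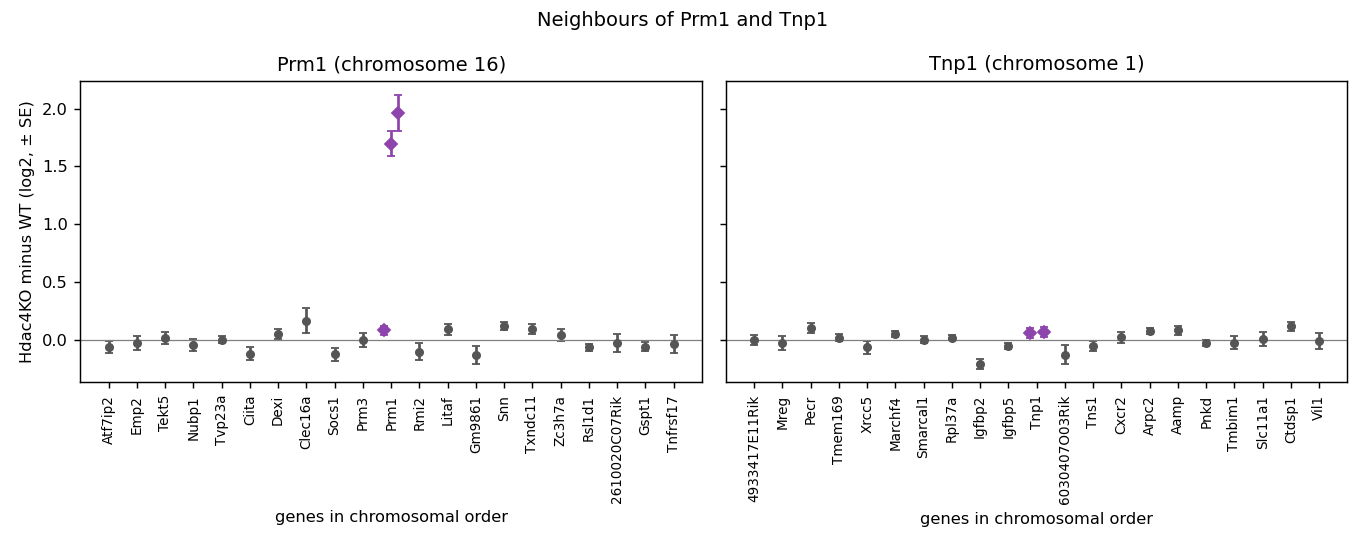
Log2 difference, Hdac4KO minus WT (vertical axis, ± SE), for the 10 measured genes on each side of Prm1 and of Tnp1 at their brightest probe sets (grey), in chromosomal order, with all probe sets of Prm1 and Tnp1 in purple. The raised Prm1 probe sets stand at 1.70 and 1.96 and the neighbours of Prm1 between −0.12 and 0.17, and the lowest point on the right is Igfbp2 at −0.20.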

How the data were processed

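RNA of 20 whole brains was measured on Affymetrix mouse arrays. The authors labelled total RNA with a 3′ kit, hybridized and scanned 1 array per brain, and deposited 1 log2 signal per probe set and array. The values were already normalized between arrays, and the sources used here do not give the method of summary. Probe sets were named through the platform annotation, in which 34945 of 45037 carry 1 symbol, 932 several and 9160 none. The 64 control probe sets were left out of tests. Gene order came from RefSeq (18029 of 18194 genes placed), and since the files name no build no positions are given from it for probe sets. The promoter windows carry the build of their own table, GRCm38.p6.

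Hdac4KO and WT arrays were fitted in limma 3.58.1 (lmFit, then eBayes) under R 4.3.3, with p-values adjusted by Benjamini-Hochberg over all 45037 probe sets, with calls at an adjusted p under 0.05. The methods name a t-test, which was run as an alternative. Sex was tested beside genotype, and the interaction in a fit of 4 groups. Correlations were tested within genotypes with 100000 permutations (numpy 2.4.6), enumerated exactly for 8 arrays. The fit was tested on simulated data. The array number limits the precision.

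The members, the gene lists, the naming rule and the alternatives were chosen with earlier results of these data known. The rule names all member and Hdac4 probe sets, up to 4 genes of each list by smallest p and those called, the nearest and the called neighbours, and the 5 genes highest, lowest and most alike in deviations against Prm1 1439379_x_at. Prm3, H1f6, H1f7, Crem, Ybx2, Akap4, Smcp, Odf1 and Pgk2 are added for their role, and Snn after its value was seen. A gene is given by its brightest probe set. The alternatives were the t-test, sex or the 3′ minus 5′ contrast as covariate, a replicate block, a dim filter that kept probe sets exceeding their array's median on 10 or more arrays, array weights, robust eBayes with a trend, median centring, quantile normalization, another probe set per gene, and arrays left out. Replicate numbers are shared by the genotypes, with no stated meaning.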

Additional observations from a re-analysis of the deposited data

Results flagged for a closer look

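The 10 probe sets of the members and Hdac4, taken in each genotype, gave 20 groups of 10 arrays. In 5 groups an extreme array had a gap to its neighbour above Dixon's 95% critical value. Chance gives about 1 in 20 for independent groups. These groups share arrays and hold several probe sets of the same genes, so the count is not read against that rate. WT replicate 8 was far above the other WT arrays at Prm1 1439379_x_at (3.78) and Prm1 1437054_x_at (3.68), and far below them at Hdac4 1436758_at (7.36). Hdac4KO replicate 10 was far above the other knock-outs at Hdac4 1436758_at (7.35) and Hdac4 1454693_at (7.43), and its Prm1 signals were not set apart in this way. All 5 values fall on 2 arrays. Hdac4KO replicate 10 is also the array whose Xist (12.27) went with Kdm5d (6.88), and its 3′ minus 5′ contrast was 0.262. WT replicate 8, labelled male, had Xist at 5.69 and Kdm5d at 7.90, and its contrast was 0.172. The part of these measures in the 5 values was not tested.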

How the results depend on the processing

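Under each alternative run for them, the raised Prm1 probe sets kept their direction and moved by less than the spread between arrays, from 1.70 to 1.80 at 1437054_x_at and from 1.96 to 2.16 at 1439379_x_at, and from 1.65 to 1.77 and from 1.91 to 2.08 when single arrays were left out. The calls at the Hdac4 probe sets 1436758_at and 1454693_at also held, and Hdac4 1447566_at lost its call with the 3′ minus 5′ covariate (−0.48, adjusted p = 0.0802). The number of probe sets called, 927, was 43 with that covariate, 1674 without dim probe sets (a filter that drops most members), 1501 with array weights, 327 without both intermediate arrays and 415 without the 3 arrays against their sex label. It ran from 351 without WT replicate 2 to 1715 without Hdac4KO replicate 2. With the replicate block it was 948. The numbers pair few arrays (1 of 10 pairs correlated above 0.1), and at the brightest probe sets of list genes and neighbours the block ended the calls of Ybx3 and Odf2 and called Camk4 higher (adjusted p = 0.0414), while the calls of Igfbp2 and of the 3 Hdac4 probe sets held. The causes of these shifts were not tested.

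Of the regulators of protamine genes, 1 in the report, 0 were called with sex or the 3′ minus 5′ contrast as covariate, with median centring, without both intermediate arrays or without the 3 arrays, 2 without dim probe sets, and 0 to 2 without single arrays. With the replicate block the 1 called was Camk4 in place of Ybx3. Of the sperm tail genes, 0 were called with the 3′ minus 5′ covariate, the replicate block, both intermediate arrays left out, or the mean or most variable probe set per gene, and 0 to 1 without single arrays. Of the spermatid chromatin genes 1 was called without dim probe sets. Of the brain markers 1 was called without dim probe sets, with trend and robust eBayes or with array weights, and 0 to 1 without single arrays. Of the neighbours of Prm1 1 was called without dim probe sets or with trend and robust eBayes, and 0 to 1 without single arrays. Of the neighbours of Tnp1 2 were called by the t-test, by trend and robust eBayes or with array weights, 3 without dim probe sets and 0 with the 3′ minus 5′ covariate.

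The correlation of Prm1 with Hdac4 1454693_at changed sign without both intermediate arrays in WT at 1415955_x_at (−0.43) and 1439379_x_at (0.40), and in Hdac4KO at 1415955_x_at (−0.044) and 1437054_x_at (0.055). Without single arrays r ran in WT from −0.43 to 0.33 (1415955_x_at), from −0.83 to −0.26 (1437054_x_at) and from −0.78 to 0.40 (1439379_x_at), and in Hdac4KO from −0.27 to 0.32, from −0.58 to 0.055 and from −0.69 to −0.034.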
